A study of Saccharomyces cerevisiae with 4 samples.

Results

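The gene set comprised 33 Saccharomyces cerevisiae genes of 5653 annotated nuclear genes on the array: 20 genes for proteins of the large ribosomal subunit, 5 genes for the ribosomal stalk (RPP0, RPP1A, RPP1B, RPP2A and RPP2B) and 8 genes for translation factors (TEF1, TEF2, YEF3, EFT1, EFT2, HYP2, TIF1 and TIF2). The members were chosen by name, and their probes were the 122 probes that the authors' annotation column gave to these genes and that carried no exclusion mark. Of these probes, 54 lay inside an open reading frame, 33 in a promoter, 30 in a promoter shared by divergent genes and 5 downstream of a gene. The large-subunit members were listed as genes without an intron. The stalk genes were not chosen on that ground: RPP1B spans 622 bp in the RefSeq table against 321 bp for RPP1A, and it carries an intron. The spans of 32 of the 33 genes were multiples of 3.

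The ribosome is built from RNA and ribosomal proteins, and its large subunit holds the peptidyl transferase centre, the exit tunnel and a flexible stalk of acidic P proteins that recruits elongation factors. Elongation factor 1A brings aminoacyl-tRNA to the ribosome, elongation factor 2 moves the ribosome along the message, and elongation factor 3 is an additional ATPase that fungi need for elongation. In yeast growing on glucose these genes are among the most highly transcribed of the genome. Many ribosomal protein genes carry an intron in yeast, where introns are otherwise rare, and most are present in 2 copies. Nup157 and Nup170 are related structural proteins of the inner ring of the nuclear pore complex. Sir4 is a structural protein of silent chromatin, and yKu70, with yKu80, binds DNA ends and telomeres as Ku.

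The study mapped where chromatin was recovered with these nucleoporins. Each of 4 libraries was a chromatin immunoprecipitation (ChIP) with an antibody to a 9xMyc tag, set against whole cell extract of the same cells on a 2-colour tiling array. The groups were Nup157-9xMyc in otherwise wild-type cells, Nup170-9xMyc in cells labelled sir4∆::natR, Nup170-9xMyc in cells labelled yku70∆::natR, and Nup170-9xMyc in otherwise wild-type cells, with 1 library in each. All 4 strains were listed as MATa with lys2∆0, ura3∆0, leu2∆0 and his3∆1, and with the tag marked by hphR. Cells had grown in YPD at 30 °C to an OD600 of 1.0, were cross-linked in 1% formaldehyde for 1 h, and their chromatin was sheared to 400 bp on average. ChIP DNA was labelled with Cy5 and extract with Cy3 throughout, so a dye effect remains in every ratio, and no untagged strain is analysed here.

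Each library holds 2 hybridisations, and nothing in the labels says whether they came from separate immunoprecipitations. They were taken as repeat measurements, so with 1 library in each group there is no replicate check and no p-value. Between 41409 and 41430 nuclear probes were used in each library. Over all probes the hybridisations of a library correlated at 0.57 for Nup157, 0.63 for the library labelled sir4∆, 0.70 for the library labelled yku70∆ and 0.68 for Nup170 in wild type. The Nup157 library was wider: the spread of probes below the median was 0.50 log2 units there, against 0.19, 0.18 and 0.22 in the Nup170 libraries labelled sir4∆ and yku70∆ and in the wild-type one.

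The extract signals did not bear out every strain label. In the library labelled sir4∆, the SIR4 probes were at 70.6% of their level in the other libraries, and all 15 were lower, but none was near the level of blank spots. In the library labelled yku70∆, the YKU70 probes were at 96.6% of their level elsewhere. All 16 LYS2 probes were near blank level in the Nup157 extract and none was in the others, although the labels give lys2∆0 for every strain. Both Nup170 deletion strains are therefore named below as labelled.

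Chromatin of most of the 33 genes was recovered above the array median in every library. Values are log2 ratios of ChIP over extract, centred so that the median probe of each hybridisation is 0, averaged over the hybridisations and then over the probes of a gene. Of the 33 genes, 32 had at least 2 probes, while TIF1 had 1 probe and is left out of medians and counts. The median over these 32 genes was 0.61 for Nup157, 0.39 in the library labelled sir4∆, 0.50 in the library labelled yku70∆ and 0.56 for Nup170 in wild type. The medians over all genes measured were -0.01, -0.01, -0.01 and -0.02 in the same libraries. The 95% order-statistic intervals of the member medians, which cover the spread between genes only, ran from 0.35 to 0.71, from 0.29 to 0.50, from 0.38 to 0.64 and from 0.43 to 0.74. Values above 0 were found for 30 of 32 members with Nup157, for 31 in each deletion-labelled library and for 32 with Nup170 in wild type.

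A gene was called high at a log2 ratio of at least 0.5, which is 1.41-fold over the array median, with both hybridisations above 0. With Nup157, 21 of 32 members were high, against 9% of all genes. There were 9 high members in the library labelled sir4∆, against 1.47% of all genes. The library labelled yku70∆ had 15 high members, against 2.34%, and Nup170 in wild type had 19, against 3.12%. In the wider Nup157 library more genes of any kind passed the threshold, and when each library was scaled to the spread of the Nup170 wild-type library, 1 member was high with Nup157. Normexp background correction, which models the background as part of each spot's signal, raised the member medians in the Nup170 libraries labelled sir4∆ and yku70∆ and in wild type to 0.77, 0.95 and 1.05, and the count of high members in the first 2 of these to 20 and 23. Without the trend with intensity, the Nup157 median was 0.34, with 13 members high. By rank, 21 members lay in the top 10% of all genes with Nup157 and 28 in each of the Nup170 libraries.

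**Figure D1:**
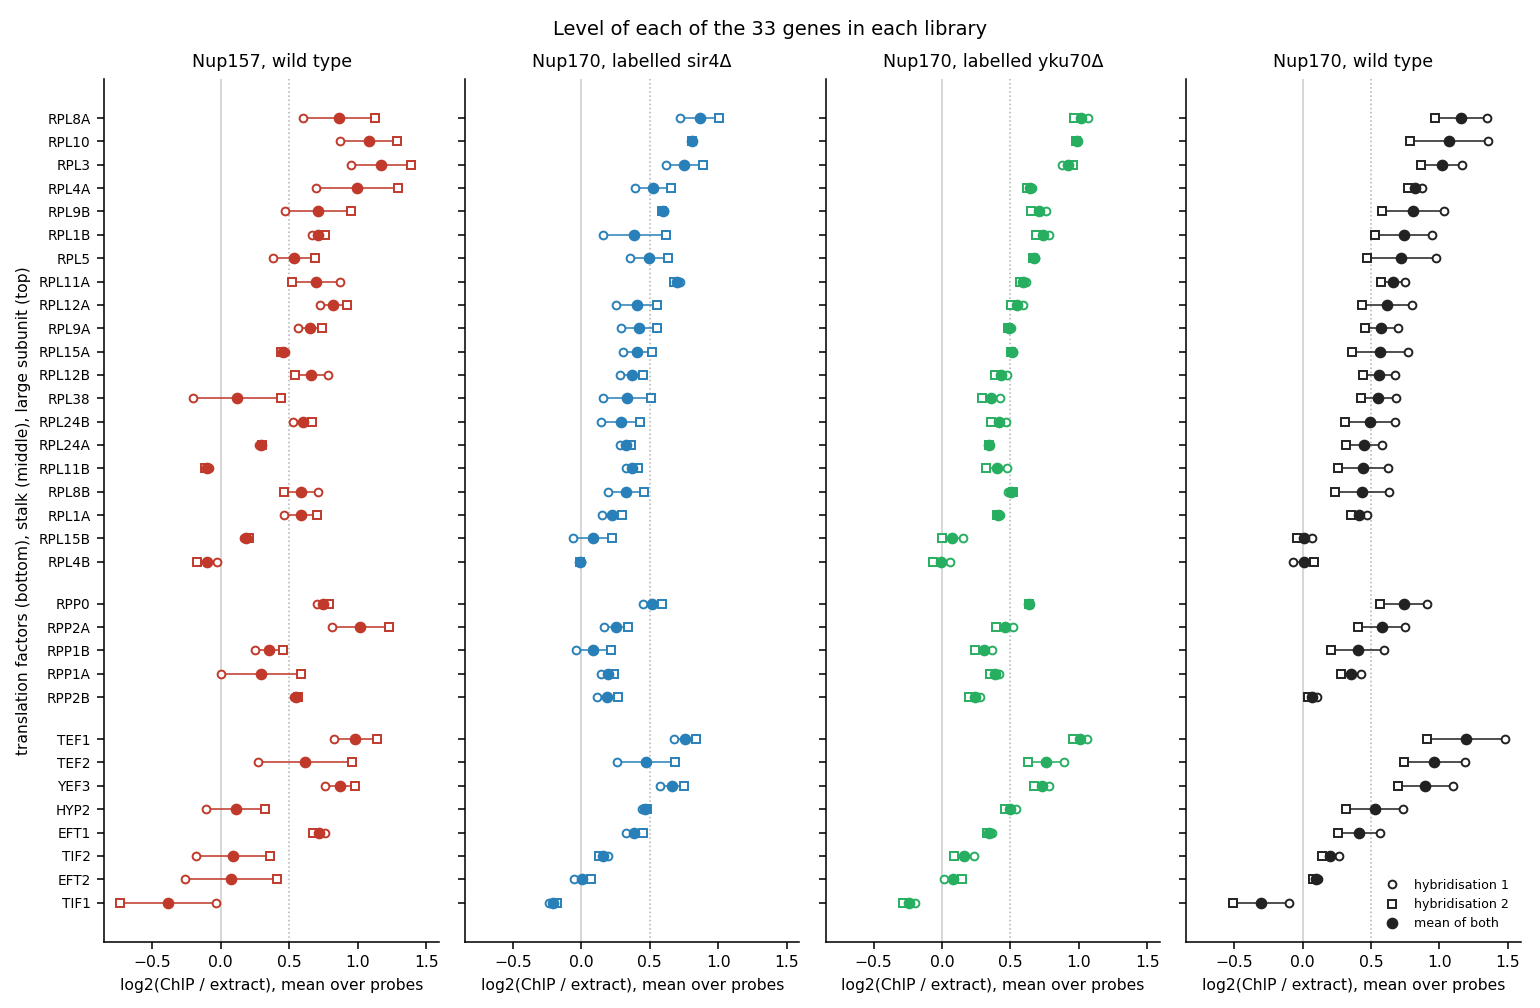
Log2 ratio of ChIP over extract (x axis) for each of the 33 genes (rows, grouped as large subunit, stalk and translation factors and ordered by the Nup170 wild-type value) in the 4 libraries (panels). Open circles and squares are hybridisations 1 and 2, filled circles their mean, and the dotted line is the threshold of 0.5. RPL4B and RPL15B lie near 0 in the Nup170 libraries, while RPL3, RPL8A, RPL10 and TEF1 lie beyond 0.7 in every library.

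The hybridisations of one library differed in overall size. For Nup170 in wild type the member median was 0.72 in hybridisation 1 and 0.42 in hybridisation 2, and 31 of 32 members were higher in the first. In the library labelled sir4∆ the corresponding medians were 0.28 and 0.49, and in the library labelled yku70∆ they were 0.51 and 0.47. For Nup157 they were 0.53 and 0.67. The order of the members was more alike between hybridisations than their size: across the 32 members the 2 hybridisations correlated at 0.70 for Nup157, 0.85 for the library labelled sir4∆, 0.96 for that labelled yku70∆ and 0.93 for Nup170 in wild type. These correlations are descriptions over genes measured with the same probes on the same arrays.

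Among the large-subunit genes, RPL8A, RPL10, RPL3, RPL4A and RPL9B had the highest Nup170 wild-type values. RPL8A (YHL033C, probes at chr8:35578-36287 in the coordinates of the files, with no build named) encodes a large-subunit protein that is also needed in its assembly. Its log2 ratio was 0.86 with Nup157, 0.87 in the library labelled sir4∆, 1.01 in the library labelled yku70∆ and 1.16 with Nup170 in wild type. RPL10 (YLR075W, chr12:282948-283606) encodes a protein that joins the subunit late, after nuclear export. It stood at 1.08, 0.81, 0.98 and 1.07 in the same libraries, with all 4 of its probes inside the open reading frame. RPL3 (YOR063W, chr15:444361-445718) encodes a protein next to the peptidyl transferase centre. It had 1.17 with Nup157, 0.75 and 0.92 in the libraries labelled sir4∆ and yku70∆, and 1.02 with Nup170 in wild type. It was the highest member with Nup157 and the fourth highest in each of the Nup170 libraries.

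RPL4A (YBR031W, chr2:300076-301236) encodes a protein that lines the exit tunnel, and its 2 probes averaged 1.00 with Nup157, 0.52 in the library labelled sir4∆, 0.64 in the library labelled yku70∆ and 0.82 with Nup170 in wild type. With normexp it was at -0.15 in the library labelled sir4∆. RPL5 (YPL131W, chr16:302782-303827), which encodes the carrier of the smallest ribosomal RNA, stood at 0.54, 0.50, 0.67 and 0.72. Its partner in that complex is encoded by RPL11A and RPL11B. RPL11A had 0.70, 0.70, 0.59 and 0.66, from 1 probe in a shared promoter and 1 downstream. With normexp background correction it had 0.068, -0.40, -0.21 and -0.075, so its direction turned in the Nup170 libraries. RPL11B had -0.10, 0.37, 0.40 and 0.44. RPL11B was thus below 0 in both Nup157 hybridisations, at -0.09 and -0.11, and above 0 in every Nup170 hybridisation.

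RPL4B and RPL15B were the lowest large-subunit genes with Nup170. RPL4B (YDR012W, chr4:470752-472964) had -0.10 with Nup157, -0.01 in the library labelled sir4∆, 0.00 in the library labelled yku70∆ and 0.01 with Nup170 in wild type. Of its 6 probes, 5 lie upstream, as far as 1067 bp from the start. RPL15B (YMR121C, chr13:509862-510779) had 0.19, 0.08, 0.08 and 0.01. The median of the 20 large-subunit genes was 0.62 with Nup157, 0.40 and 0.51 in the libraries labelled sir4∆ and yku70∆, and 0.57 with Nup170 in wild type.

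The stalk genes had lower medians than the large-subunit genes in all 4 libraries. RPP0 (YLR340W, chr12:805666-806705) encodes the scaffold on which the acidic stalk proteins sit, and it stood at 0.74 with Nup157, 0.52 in the library labelled sir4∆, 0.64 in the library labelled yku70∆ and 0.74 with Nup170 in wild type. RPP2A, for an acidic stalk protein, had 1.02 with Nup157 against 0.25, 0.46 and 0.58 in the Nup170 libraries labelled sir4∆ and yku70∆ and in wild type. Its copy RPP2B had 0.55 with Nup157 against 0.19, 0.24 and 0.07. RPP1A and RPP1B, for the partner acidic proteins, had 0.29 and 0.35 with Nup157 and 0.35 and 0.40 with Nup170 in wild type. The median over the 5 stalk genes was 0.55 with Nup157, 0.19 and 0.38 in the libraries labelled sir4∆ and yku70∆, and 0.40 with Nup170 in wild type.

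The translation factor genes included the highest member value with Nup170 in wild type, that of TEF1. The lowest, at -0.30, was the single TIF1 probe, which is left out of medians and counts. Among the 32 members with at least 2 probes the lowest was RPL4B, at 0.01. TEF1 (YPR080W, chr16:700170-702006) encodes elongation factor 1A. It stood at 0.98 with Nup157, 0.76 in the library labelled sir4∆, 1.01 in the library labelled yku70∆ and 1.20 with Nup170 in wild type, where its hybridisations gave 1.48 and 0.91. TEF2 (YBR118W, chr2:477139-477633), for the same protein, had 0.61, 0.47, 0.76 and 0.96. Neither gene has a probe inside its open reading frame, so these values come from the flanks. YEF3 (YLR249W, chr12:636229-639936), for elongation factor 3, had 0.87, 0.66, 0.73 and 0.90 over 15 probes.

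EFT1 and EFT2 encode elongation factor 2. EFT1 had 0.71 with Nup157, 0.39 and 0.35 in the libraries labelled sir4∆ and yku70∆, and 0.41 with Nup170 in wild type, while EFT2, with no probe inside the gene, had 0.08, 0.01, 0.08 and 0.10. HYP2, for the factor known as eIF5A, had 0.11, 0.46, 0.50 and 0.53, and its Nup157 hybridisations lay on either side of 0. TIF1 and TIF2 encode the helicase eIF4A. TIF2 had 0.09, 0.16, 0.16 and 0.20, and the single TIF1 probe, in the promoter, had -0.39, -0.21, -0.24 and -0.30.

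The other genes of translation give the level in which these values sit. The other large-subunit genes, most with an intron, had medians over 54 measured genes of 0.30 with Nup157, 0.38 in the library labelled sir4∆, 0.47 in the library labelled yku70∆ and 0.59 with Nup170 in wild type. The 52 measured small-subunit genes had 0.40, 0.37, 0.49 and 0.60. In each Nup170 library the interval of the member median thus covered both other medians. With Nup157 the other large-subunit median lay below the interval of the member median. Called high were 12, 11, 22 and 36 of the other large-subunit genes and 20, 12, 25 and 34 of the small-subunit genes. With Nup170 in wild type these were 66.7% and 65.4%, against 59.4% of the members. With Nup157 they were 22.2% and 38.5%, against 65.6% of the members. A list of 32 further initiation, elongation and termination factors had medians of 0.10, 0.09, 0.13 and 0.10, with 4, 2, 3 and 2 genes called high. TEF4 and EFB1, for subunits of the exchange factor of elongation factor 1A, were the highest of that list with Nup170 in wild type at 0.76 and 0.70. ANB1, the copy of HYP2 used without oxygen, and TIF35, for a subunit of initiation factor 3, were the lowest at -0.20 and -0.11.

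Signal was higher over the members than in the 750 bp before them. Probes were placed by their distance from the gene start, and the median over member probes was taken in windows of 250 bp. Inside the genes there were 26 probes of 20 genes before the midpoint and 28 probes of 19 genes past it. YEF3 alone gave 11 of these inside probes. With Nup170 in wild type the median was 0.02 from 750 to 500 bp before the start, 0.19 from 500 to 250 bp and 0.34 in the last 250 bp. It was 0.86 between the start and the midpoint of the genes, 1.05 between midpoint and end, 0.69 in the first 250 bp past the end and 0.06 in the next 250 bp. With Nup157 the same windows had 0.15, 0.17, 0.41, 1.04, 1.09, 0.61 and 0.03. Farther out, from 1000 to 750 bp before the start, the Nup157 median was 0.38, against 0.09 over all genes. Its interval, from 0.07 to 0.67, covered the median of all genes. Whether the Nup157 values climbed steadily towards the start can therefore not be told from these windows. The Nup170 wild-type median there was 0.01. The medians of all genes stayed between -0.16 and 0.03 in the Nup170 wild-type library.

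**Figure D2:**
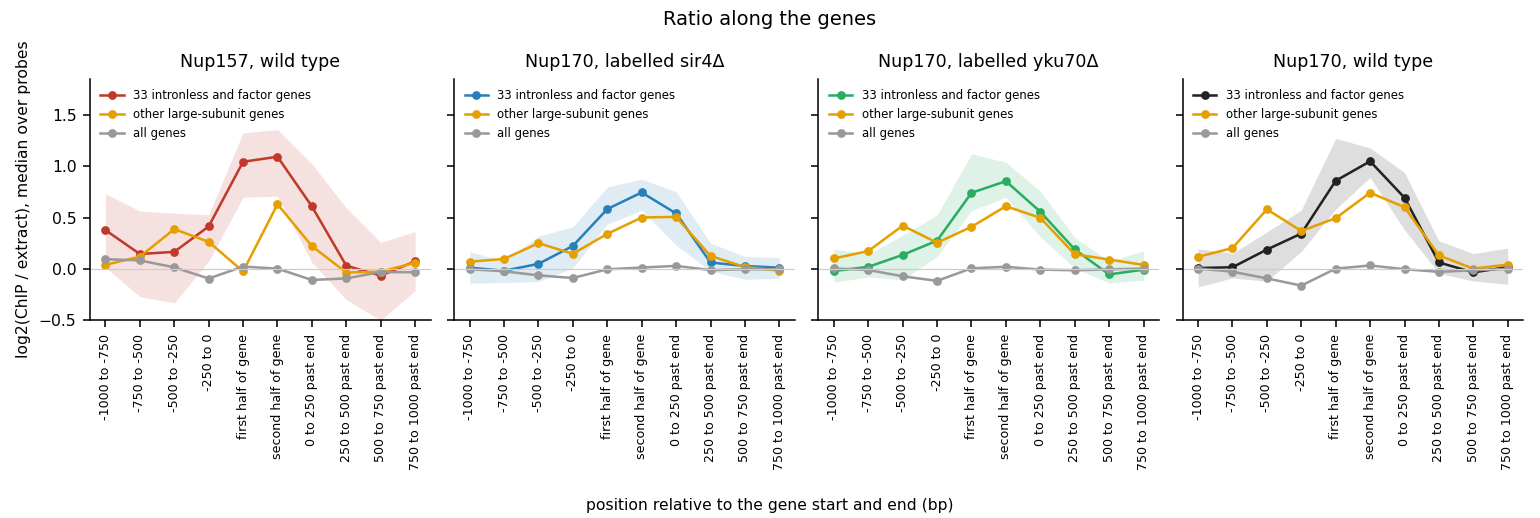
Median log2 ratio over probes (y axis) by position along the genes (x axis, in bp before the start, before and after the midpoint of the gene and in bp past the end) in the 4 libraries (panels). Coloured or black lines with a band are the 33 genes with the quartiles of their probes, orange lines the other large-subunit genes and grey lines all genes. The median over member probes peaks inside the gene in every library. It is 1.09 with Nup157 and 1.05 with Nup170 in wild type, both past the midpoint. The windows inside the gene hold probes of 20 genes before the midpoint and of 19 genes past it.

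For 27 members with probes in both regions, the open reading frame was compared with the 500 bp before it. With Nup157 the median was 1.03 inside and 0.17 upstream, the median difference of the genes was 0.88, and 25 of 27 members were higher inside, against 59.5% of all genes. For the library labelled sir4∆ the median was 0.61 inside and 0.13 upstream, with a difference of 0.44 and 26 members higher inside, against 67.9%. For the library labelled yku70∆ it was 0.69 inside and 0.22 upstream, with a difference of 0.48 and 25 members higher inside, against 73.4%. With Nup170 in wild type it was 0.85 inside and 0.24 upstream, with a difference of 0.53 and 24 members higher inside, against 74.1%. The median differences over all genes were 0.11, 0.09, 0.12 and 0.15. Normexp background correction gave member differences of 1.19, 1.03, 1.02 and 1.21, and removing the trend with intensity gave 0.46 with Nup157.

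The exceptions were few. RPL38, a small gene for a protein of the large subunit, was higher upstream in 3 libraries: its inside and upstream values were -0.16 and 0.39 with Nup157, 0.32 and 0.40 in the library labelled yku70∆, and 0.46 and 0.65 with Nup170 in wild type. RPL11B was higher upstream in all 3 Nup170 libraries, at 0.19 inside and 0.57 upstream with Nup170 in wild type. With Nup157 it was the reverse, at 0.63 inside and -0.46 upstream. RPL12A, for a protein at the base of the stalk, was at 0.56 inside and 0.65 upstream with Nup170 in wild type. TIF2 was at -0.05 inside and 0.01 upstream with Nup157.

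**Figure D3:**
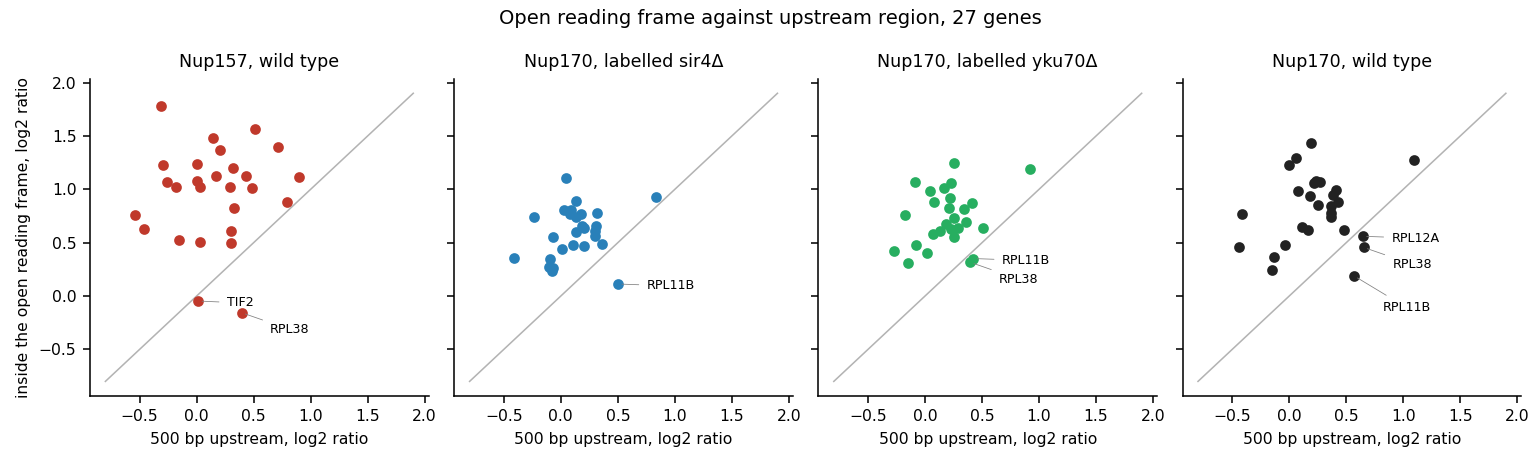
Log2 ratio inside the open reading frame (y axis) against the 500 bp upstream (x axis) for 27 genes in the 4 libraries (panels), with 1 point a gene and a diagonal where both are equal. Nearly all points lie above the diagonal, and the genes below it are named.

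Other ribosomal protein genes had a smaller step from upstream to open reading frame. Over 52 other large-subunit genes the median difference was -0.07 with Nup157, 0.27 in the library labelled sir4∆, 0.16 in the library labelled yku70∆ and 0.14 with Nup170 in wild type. Over 51 small-subunit genes it was 0.24, 0.28, 0.27 and 0.17. Over the 32 further translation factors it was 0.16, 0.22, 0.32 and 0.39, and 22, 28, 30 and 30 of them were higher inside. With Nup170 in wild type that was 93.75% of these factors, against 88.9% of the members, so a higher open reading frame was not particular to the members. Inside the open reading frame, the Nup157 median was 1.03 for the members, 0.48 for the small-subunit genes and 0.27 for the other large-subunit genes. The gap to the other large-subunit genes was present in each hybridisation, at 0.93 against 0.27 in the first and 1.21 against 0.29 in the second. The Nup170 wild-type medians were nearer, at 0.85 against 0.59. Before the midpoint of the gene the Nup157 medians were 1.04 for the members and -0.02 for the other large-subunit genes, and past it they were 1.09 and 0.63. The small-subunit genes had 0.19 before the midpoint and 0.83 past it. The second of these lay within the interval of the member median there, from 0.76 to 1.32. The open reading frame was taken here as the whole span from gene start to end, with any intron included. Most of the other large-subunit genes have an intron, so their inside probes can lie in intron as well as coding sequence. Coding sequence alone was not compared.

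Single probes show the step along the longer genes. YEF3 has 11 probes inside its open reading frame, and they ranged from 0.20 to 1.66 with Nup157, from 0.54 to 1.13 in the library labelled sir4∆, from 0.70 to 1.37 in the library labelled yku70∆ and from 0.95 to 1.57 with Nup170 in wild type. Its 4 upstream probes ranged from -0.60 to 0.50, from -0.25 to 0.51, from -0.54 to 0.48 and from -0.44 to 0.58. With Nup170 in wild type no inside probe overlapped the upstream range. With Nup157 the probe 2054 bp from the start, at 0.20, lay within the upstream range, and the probe at 1761 bp, at 0.65, lay just above it. RPL3 climbed over a short distance. With Nup170 in wild type its probes stood at -0.08 at 297 bp before the start, 0.46 at 11 bp before it, 1.38 at 190 bp after it and 1.52 at 728 bp after it. With Nup157 its probe 1002 bp after the start, at 0.73, was below the one 11 bp before it, at 0.83. RPP0 and RPL5 had inside medians of 1.32 and 1.01 with Nup157 and of 1.13 and 1.06 with Nup170 in wild type.

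**Figure D4:**
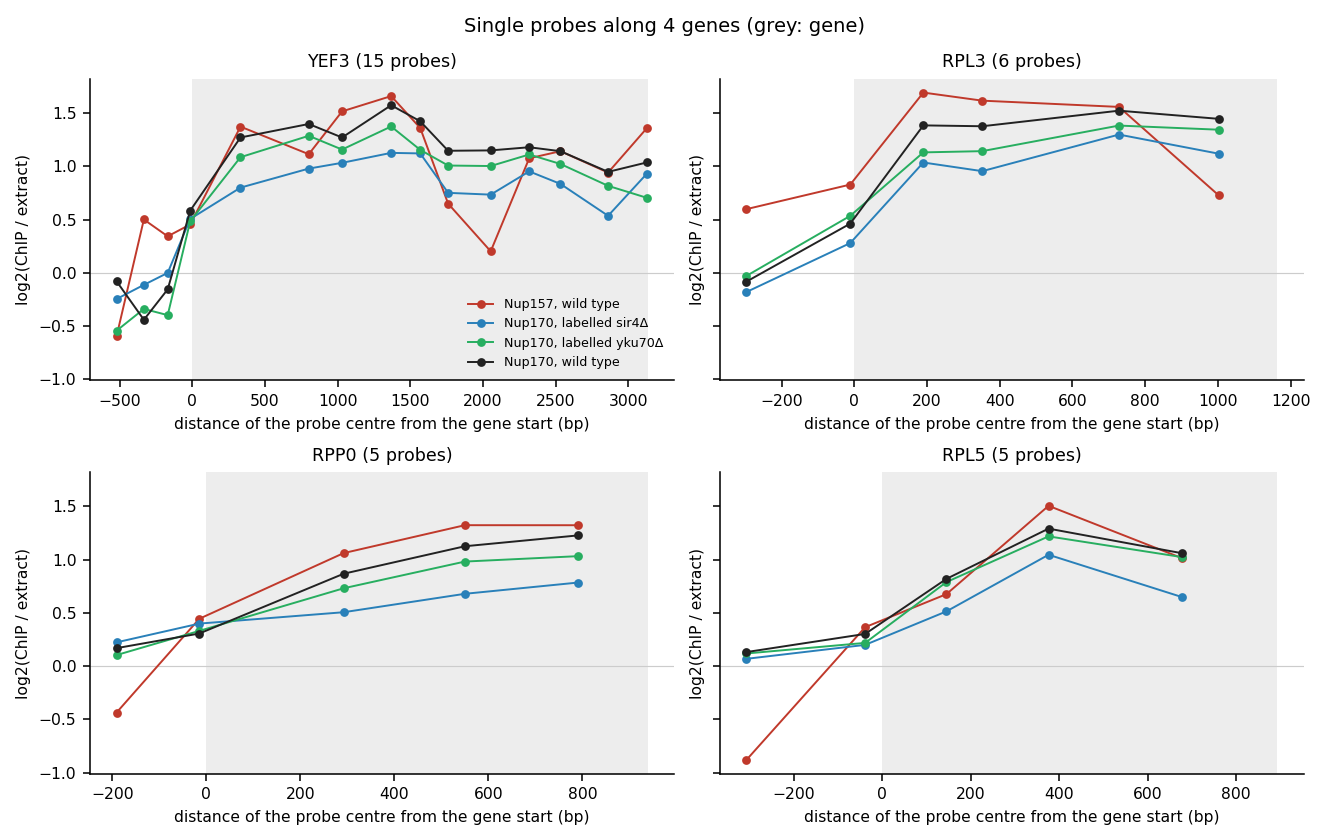
Log2 ratio of single probes (y axis) by distance from the gene start in bp (x axis) along YEF3, RPL3, RPP0 and RPL5 in the 4 libraries (lines), with the gene shaded. With Nup170 in wild type values climb at the gene start. With Nup157 the RPL3 probe at 1002 bp is at 0.73 and the YEF3 probes at 1761 and 2054 bp are at 0.65 and 0.20, below the probes before them.

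TEF1 and TEF2 have no probe inside, so the step could not be read for them, but their distal upstream probes were high. Such probes were not confined to them. With Nup170 in wild type, RPL12A was at 1.04 at 427 bp before the start and RPL38 at 0.96 at 363 bp. With Nup170 in wild type the TEF1 probe 391 bp before the start was at 1.37 and the probe 10 bp before it at 0.73, while a probe just past the end was at 1.49. The TEF2 probe 461 bp before the start was at 1.56, the probe at 210 bp at 0.39 and the probe at 22 bp at 0.93. With Nup157 the distal TEF1 and TEF2 probes were at 1.16 and 1.18, and in the library labelled sir4∆ they were at 0.60 and 0.62. The library labelled yku70∆ had 1.15 and 1.38 there.

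The ChIP channel, more than the extract channel, stood above the array median at probes inside the members. Over the 54 probes inside members, the ChIP channel stood 1.15 log2 units above its array median with Nup157, 1.03 in the library labelled sir4∆, 1.12 in the library labelled yku70∆ and 1.10 with Nup170 in wild type. The extract channel stood at 0.06, 0.29, 0.23 and 0.09. At the 5 downstream probes the ChIP channel was below its array median, at -0.42, -0.53, -0.39 and -0.05. The extract channel was lower still there, at -1.10, -1.18, -1.15 and -1.12, so low extract went with these high ratios. These probes belong to TEF1, RPL11A, RPP1A, RPP2A and RPP2B. No member probe was near blank level in the extract except 1 downstream of RPL11A in the library labelled yku70∆.

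The authors' files also mark the probes that they placed in bound regions. Of the 122 member probes, 44 were marked with Nup157 (36.1%, against 5.18% of all probes), 56 in the library labelled sir4∆ (45.9%, against 4.73%), 79 in the library labelled yku70∆ (64.8%, against 5.35%) and 83 with Nup170 in wild type (68.0%, against 5.39%). Inside open reading frames 36, 41, 47 and 47 of the 54 probes were marked in the same libraries, against 5.73%, 3.95%, 4.36% and 4.28% of all inside probes. In promoters not shared with another gene the counts were 2, 8, 11 and 13 of 33, against 3.63%, 6.31%, 7.55% and 7.77%, so the Nup157 share of 6.06% was near its background. In promoters shared by divergent genes they were 4, 3, 17 and 18 of 30, against 3.88%, 3.22%, 5.13% and 5.51%. The exact 95% binomial intervals of the first 2 of these shares, from 3.76% to 30.7% with Nup157 and from 2.11% to 26.5% in the library labelled sir4∆, cover the background. These intervals count the 30 probes as independent, although they belong to 15 genes and neighbouring probes can share a bound region. They are therefore a rough guide, likely too narrow, and do not measure a spread between libraries. At least 1 marked probe was present in every library for 16 members. RPL4B, RPL15B, EFT1, EFT2, TIF1 and TIF2 had none in any library. Of these, EFT1 had a log2 ratio of 1.02 at its only inside probe with Nup157.

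The members include 13 pairs of gene copies. Copies can share coding sequence, so probes inside them may read both, which was not tested for any pair. There are 6 members (RPL1B, RPL11A, TEF1, TEF2, EFT2 and TIF1) with no probe inside. Over the 12 pairs without TIF1, the median gap between copies, without regard to sign, was 0.29 with Nup157, 0.23 in the library labelled sir4∆, 0.23 in the library labelled yku70∆ and 0.27 with Nup170 in wild type. RPL4A over RPL4B had the largest gap of any pair with Nup157, at 1.10, with Nup170 in wild type, at 0.81, and in the library labelled yku70∆, at 0.64. Inside the gene each copy has 1 probe, near the end, and there RPL4A was above RPL4B by 0.87 with Nup157 and by 0.82 with Nup170 in wild type. RPL8A exceeded RPL8B by 0.72 with Nup170 in wild type. That gap lay upstream, where it was 0.92, more than inside, where it was 0.34.

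RPL15A was 0.56 above RPL15B with Nup170 in wild type, and RPP2A was 0.51 above RPP2B. RPP2A and RPP2B had opposite gaps in the 2 regions with Nup157: RPP2A was 1.21 higher upstream, while inside it was at 1.12 and RPP2B at 1.78. RPL11A was 0.80 above RPL11B with Nup157 and 0.22 above it with Nup170 in wild type. RPL12A and RPL12B stood 0.16 apart with Nup157 and 0.06 apart with Nup170 in wild type.

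Nup157 and Nup170 were compared in cells labelled as otherwise wild type. The LYS2 probes were near blank level in the Nup157 extract only, so these extracts differed at LYS2 despite the same label. Over the members the median difference, Nup157 minus Nup170, was -0.02, with an interval from -0.11 to 0.11, and the median over all genes was -0.02. Of 32 members, 15 were higher and 17 lower with Nup157. A member was called different at a difference of at least 0.25 with the same sign in all 4 pairings of hybridisations. By this rule 3 members were higher with Nup157, against 20.1% of all genes, and 1 was lower, against 19.6%. The 3 were RPP2B, RPP2A and EFT1 with differences of 0.48, 0.44 and 0.30, and the member that was lower was RPL11B with -0.54. Both shares among members were below those of all genes. The medians of the 4 pairings ran from -0.29 to 0.24, so the sign of the member median depended on which hybridisations were set against each other.

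Past these 4 genes the largest differences did not keep their sign. RPL38, HYP2 and TEF2 had -0.44, -0.42 and -0.35, but each had 1 pairing above 0. Over the other large-subunit genes the median difference was -0.26, with 23 of 54 genes called lower and 1 higher. Over the small-subunit genes it was -0.17, with 17 of 52 called lower and 1 higher. When each library was scaled to the spread of the Nup170 wild-type library, the member median was -0.34, with 20 members called lower and none higher. Across the 32 members the Nup157 and Nup170 wild-type levels correlated at 0.75, against 0.43 across all genes, which share probes and array design.

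The libraries labelled sir4∆ and yku70∆ were each set against the same Nup170 wild-type library, so the differences are not independent of each other. In the library labelled sir4∆ the member median difference was -0.20, with an interval from -0.23 to -0.11, against 0.00 over all genes, and 29 of 32 members were lower. Called lower were 4 members, against 1.23% of all genes, and none was called higher, against 0.743%. They were TEF2 at -0.49, TEF1 at -0.44, RPP2A at -0.32 and RPL4A at -0.30. RPL1B was at -0.35, but 1 pairing was above 0. RPP2B, RPL15B and RPL11A were the highest, at 0.12, 0.07 and 0.04. The other large-subunit and small-subunit genes had medians of -0.21 and -0.24, close to that of the members. Of these, 9 of 54 (16.7%) and 16 of 52 (30.8%) were called lower, against 12.5% of the members, so the lower calls were not particular to the members.

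This difference rested on the hybridisations chosen. Hybridisation 1 of both libraries gave a member median of -0.45, and hybridisation 2 of both gave 0.04. In that second pairing no member was lower by the threshold.

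The second deletion label was yku70∆. In that library the member median difference was -0.07, with an interval from -0.10 to -0.04, against 0.01 over all genes. Lower values were found for 28 of 32 members, and the members ranged from -0.20 for TEF2 to 0.17 for RPP2B. No member was called lower, against 0.163% of all genes, or higher, against 0.471%. TEF2, RPL38 and TEF1 were the lowest at -0.20, -0.20 and -0.19, and RPP2B, RPL8B and RPL15B the highest at 0.17, 0.07 and 0.06. The median was -0.21 with hybridisation 1 of both libraries and 0.05 with hybridisation 2, so its sign also changed. The other large-subunit and small-subunit genes were both at -0.10.

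**Figure D5:**
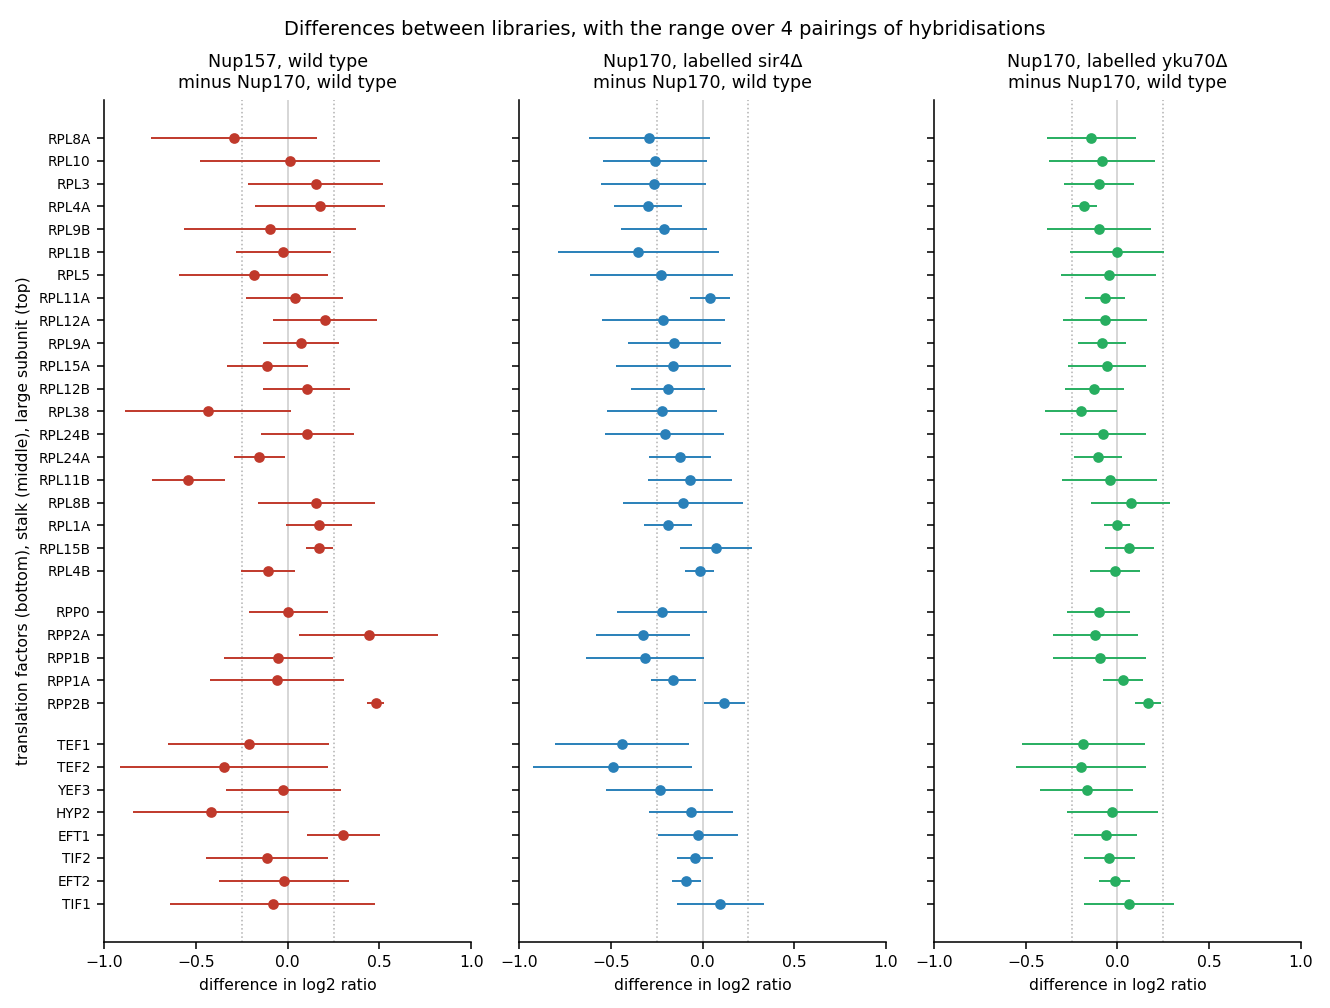
Difference in log2 ratio from the Nup170 wild-type library (x axis) for each of the 33 genes (rows) in the Nup157 library and in the Nup170 libraries labelled sir4∆ and yku70∆ (panels). Points are differences of the means, lines span the 4 pairings of hybridisations, and dotted lines mark 0.25 on either side of 0. Most lines cross 0, and RPP2B lies to the right of 0 in every pairing of all 3 panels.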

How the data were processed

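The authors' files hold 1 array design for each of 4 libraries, with 2 hybridisations in each. Per the file headers, they give foreground and background intensity for each channel, normalised intensity, log2 ratios, the authors' p-value per probe, error-model scores, and 0 or 1 marks for excluded probes and bound regions. Agilent Feature Extraction is named per the submitters' processing notes; no version or genome build is named. The p-values and scores deposited were not used. A matrix of combined log2 ratios deposited by the authors held the same values as the files (100%).

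For each hybridisation the log2 ratio of the authors' normalised ChIP and extract intensity was centred on its median over nuclear probes, and the hybridisations were averaged. A gene value is the mean over its probes, of which at least 2 were required. The 295 mitochondrial probes were left out. Gene names and lengths came from the RefSeq table. Alternatives used limma 3.58.1 in R 4.3.3 for normexp (offset 50) and an intensity trend (loess span 0.3). The members, gene lists and rules were chosen with earlier results of these data known. Members described in full were the 5 highest and 5 lowest with Nup170 in wild type, the 3 highest and 3 lowest in each difference and the pairs with the largest gaps. A promoter motif search was planned and was not run, since no sequence table was used here. The number of arrays, not a read depth, limits precision.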

Additional observations from a re-analysis of the deposited data

How the results depend on the processing

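No paired analysis was possible because each group is 1 library and the labels give no replicate numbers. Member medians of the log2 ratio stayed above 0 in all libraries under every alternative. Values that left the interval of the main value, or counts that moved by over 1.5 times, are listed by setting, and the cause was not tested. Hybridisation 1 alone gave a median of 0.28 in the library labelled sir4∆. Its differences from Nup170 in wild type were -0.29 for Nup157 (1 member higher, 17 lower), -0.45 in the library labelled sir4∆ (25 lower) and -0.21 in the library labelled yku70∆ (11 lower). Hybridisation 2 alone gave 0.42 with Nup170 in wild type, with 16 members high in the library labelled sir4∆ and 11 in wild type. Its differences turned round to 0.24 for Nup157 (14 higher, 2 lower), 0.043 in the library labelled sir4∆ (1 higher, 0 lower) and 0.051 in the library labelled yku70∆ (1 higher). Hybridisation 1 against 2 of wild type turned the Nup157 median to 0.075 (7 higher, 8 lower) and the yku70∆ one to 0.13 (1 higher), and hybridisation 2 against 1 gave 6 lower for Nup157, -0.23 (14 lower) for sir4∆ and -0.27 (18 lower) for yku70∆.

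Normexp background correction gave medians of 0.90, 0.77, 0.95 and 1.05 for Nup157, sir4∆, yku70∆ and wild type, 20 and 23 members high in the libraries labelled sir4∆ and yku70∆, and inside minus upstream of 1.19, 1.03, 1.02 and 1.21. Its differences were -0.13 (5 lower), -0.29 and -0.12 (1 lower). It turned RPL11A to -0.40, -0.21 and -0.075 in the libraries labelled sir4∆ and yku70∆ and in wild type, and RPL4A to -0.15 in the library labelled sir4∆. Removing the intensity trend gave 0.34 and 13 high for Nup157, 0.38 in the library labelled yku70∆, inside minus upstream of 0.46 for Nup157 and 5 lower in its difference. No background subtraction gave 2 lower there, and so did the median over probes. The authors' combined ratio gave 0.29 in the library labelled sir4∆, -0.28 for its difference (19 lower) and 5 lower for Nup157.

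Probes inside the open reading frame alone gave medians of 1.05, 0.65, 0.78 and 0.88, with 10, 9 and 9 members high for Nup157, yku70∆ and wild type over fewer genes with 2 probes. The Nup157 difference became 0.025 and the sir4∆ one -0.27. With 1 inside probe enough, an alternative added after seeing the data, 17 members were high in the library labelled sir4∆. Upstream probes alone, also added later, gave -0.094 and -0.039 for the sir4∆ and yku70∆ differences. Open reading frame or 500 bp upstream by coordinates gave 0.012 (2 lower) for Nup157 and 1 lower for yku70∆. Scaling to equal spread gave 0.27 and 1 high for Nup157, -0.34 (0 higher, 20 lower) for its difference, 1 lower for sir4∆ and 0.039 for yku70∆, and it turned RPP2A and EFT1 to -0.13 and -0.10 with Nup157. Thresholds of 0.3 and 0.15 gave 22 and 27 high for sir4∆ and yku70∆, 2 lower for Nup157, and 1 higher and 2 lower for yku70∆. Thresholds of 0.8 and 0.4 gave 8, 2, 4 and 8 high and 2 lower for sir4∆. Of 774 repeats of single called levels 675 kept the call, 95 fell short and 4 turned round. Genes with few or near-identical probes limit the single values.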

Other observations

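Divergently transcribed neighbours of the members had lower medians than the members. For 11 members that have a probe inside and a divergently transcribed neighbour outside the ribosomal and translation lists, the members' median inside the open reading frame was 1.08 with Nup157, 0.74 in the library labelled sir4∆, 0.82 in the library labelled yku70∆ and 0.94 with Nup170 in wild type. The neighbours' medians were 0.11, 0.06, 0.07 and 0.04. The member was the higher of the pair in 8 of 11 pairs with Nup157 and in 11 of 11 in each Nup170 library. How often other high genes exceed their neighbours was not counted. RPL24B stood at 0.94 and its neighbour GPC1 at -0.12 with Nup170 in wild type, and RPP0 at 1.07 and its neighbour VRP1 at -0.09. Other neighbours were higher in that library, such as COI1 at 0.55 beside RPP2B at 0.77, and BUD20 at 0.38 beside RPL10 at 1.07. Gaps between gene starts reached 1477 bp, for TIF2. The smallest gap between starts was 130 bp, between HYP2 at 0.88 and UTR5 at 0.69. With Nup157 the order in that pair was the other way, HYP2 at 0.61 and UTR5 at 0.99.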
